A study of Mus musculus with 11 samples.

Results

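Astrocytes of the olfactory bulb (OB) were compared with astrocytes of the hippocampus (HC), gene by gene, in 6 of the 11 samples of a survey of brain regions. The samples were chosen by the region in their labels, 3 from OB and 3 from HC, and the other regions were left out. All 6 came from C57BL/6 mice of 16 weeks that carried Aldh1l1-eGFP, a transgene in which the Aldh1l1 promoter drives a green fluorescent protein, and no sample received a treatment. The study took male and female mice, without a sex in the sample labels. Dissected regions were dissociated, fluorescent cells were sorted, and RNA was sequenced, so each sample holds every cell that passed the gate and not astrocytes by definition. The study asked how astrocytes differ between regions. The labels do not say whether replicates came from separate animals, so p-values measure the spread between these samples only.

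Astrocytes take up glutamate and GABA, buffer potassium, form the endfeet around vessels and release factors that act on synapses. In the OB they lie among glomeruli, where the axons of olfactory sensory neurons end inside olfactory ensheathing cells, and among interneurons that are renewed throughout life from migrating neuroblasts. In the HC they lie among the excitatory pyramidal and granule cells, next to a ventricle that holds the choroid plexus, the epithelium that makes cerebrospinal fluid. Glial cells keep part of the transcription factor code of the brain region in which they arose.

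Values are normalized read counts, which are reads on a gene divided by a scaling factor of the sample. The 6 samples held between 4503269 and 14151670 reads on genes, the fewest in OB 1 and the most in HC 3, and a single read was worth between 0.367 and 1.09 of a normalized count. Across genes, Pearson's r of log2 values was 0.914 to 0.946 between replicates of a region and 0.838 to 0.869 between regions. To count as a differentially expressed gene (DEG), a gene needed to exceed 5 in 2 or more replicates of either region and to differ more than 1.5-fold, with p below 0.01 before adjustment. The test was limma on log2(value + 1), two-sided, and fold changes are on that scale, which understates the change of low genes. They are given with their standard error, as OB minus HC, so that a negative value means a higher level in HC.

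Astrocyte identity genes were present at high level in both regions. Aldh1l1 (chr6:90486427-90600203, GRCm38), the folate enzyme gene whose promoter drives the reporter, had values of 974, 943 and 960 in OB and 542, 833 and 916 in HC. The OB values all lay above the HC values, by less than the DEG fold. Gfap, the intermediate filament of astrocytes, had 4028, 3168 and 3321 in OB and 3672, 3976 and 3369.6 in HC and overlapped. Slc1a2, which encodes the main glutamate transporter, had 169532, 162749 and 199406 in OB and 225027, 389770 and 387844 in HC, with a log2 fold change of -0.88 ± 0.45 (limma, Benjamini-Hochberg adjusted p = 0.3058). It was not a DEG, but without HC 1 it was, at -1.14 (limma, adjusted p = 0.001766), and DESeq2 on reads called it with all samples (adjusted p = 0.0002484). Of 20 tested astrocyte markers, 2 were DEGs (10%, against 11.3% of all tested genes). Both were higher in OB, the water channel Aqp4 at 0.78 ± 0.23 and the fatty acid enzyme Acsbg1 at 0.73 ± 0.21 (limma, adjusted p = 0.0609 and 0.05031). Neither was called without OB 1, OB 3 or HC 2, where the values were 0.65 to 0.87, Aqp4 was not called without OB 2 (0.82), and without HC 1 they were 0.51 and 0.50, under the DEG fold. Without HC 1, 3 markers were called, all higher in HC and none in OB. The summed level of the 20 markers was 350403 to 417264 in OB and 348105 to 586053 in HC.

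Of 13791 genes tested, 1561 were DEGs (11.3%), of which 810 (5.87%) were higher in OB and 751 (5.45%) were higher in HC. With a Benjamini-Hochberg adjusted p under 0.05 in place of the unadjusted one, limma called 1199 genes (8.69%), 634 of them (4.60%) higher in OB and 565 (4.10%) higher in HC. Folds were often large, since 719 DEGs differed more than 4-fold and 174 more than 16-fold. Among the 174, 75 were higher in OB and 99 in HC. At 1543 of the DEGs the values of the regions did not overlap, as was so at 26.2% of all tested genes. No read was found in HC for 43 DEGs and none in OB for 63. The median log2 fold change of all tested genes was 0.006.

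**Figure D1:**
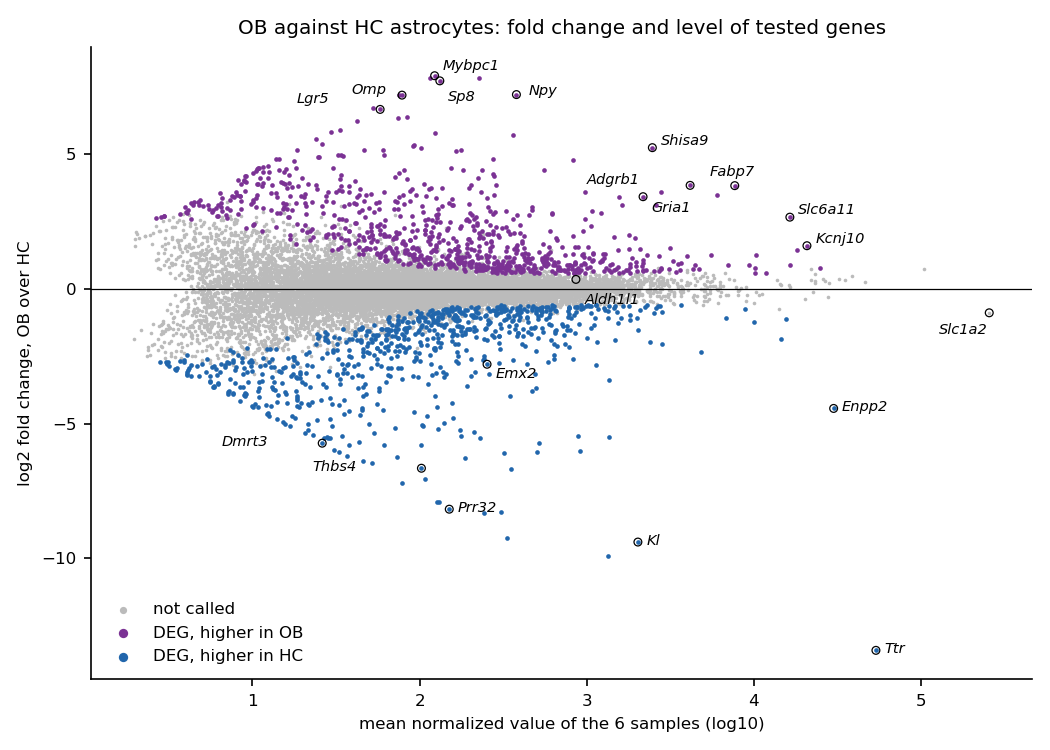
Log2 fold change of OB over HC (vertical axis) against the log10 mean normalized value of the 6 samples (horizontal axis), with a point for each of 13791 tested genes. Purple marks the 810 DEGs higher in OB, blue the 751 higher in HC and grey the rest, and the lowest point is Ttr at -13.41.

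Transcription factor genes of regional identity differed in both directions. Of 72 tested, 30 were DEGs, 18 higher in OB and 12 higher in HC, against 11.3% of all tested genes. Their median log2 fold change was -0.13. The regions did not overlap at 22 factors with OB above and at 14 with HC above, as was so at 13.4% and 12.8% of all tested genes. The number of DEGs was between 24 and 29 when any sample was left out. The promoters of the 4 factors with the largest folds are shown, for 250 bases before the annotated start, to give the sequence beside the values. They come from RefSeq on GRCm38.p6 and lie on the + strand. For Sp8, which has 3 annotated starts, the window at the lowest coordinate is given. Capitals mark TTGGC or its reverse complement GCCAA, the half-site of NFI factors, and AAGTG or its reverse complement CACTT, the core bound by NKX factors. Sp8 (chr12:118846079-118846328) and Eomes (chr9:118477939-118478188) were higher in OB, and Dmrt3 (chr19:25610287-25610536) and Six3 (chr17:85620584-85620833) were higher in HC.
Sp8: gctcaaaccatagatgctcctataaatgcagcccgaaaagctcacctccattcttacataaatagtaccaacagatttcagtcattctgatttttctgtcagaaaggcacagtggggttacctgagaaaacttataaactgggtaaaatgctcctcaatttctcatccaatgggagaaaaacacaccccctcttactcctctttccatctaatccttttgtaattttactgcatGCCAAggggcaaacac
Eomes: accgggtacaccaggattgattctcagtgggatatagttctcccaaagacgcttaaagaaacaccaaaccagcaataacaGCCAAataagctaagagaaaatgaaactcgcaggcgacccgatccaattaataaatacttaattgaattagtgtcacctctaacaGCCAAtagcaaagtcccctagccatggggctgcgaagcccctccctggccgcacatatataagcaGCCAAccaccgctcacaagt
Dmrt3: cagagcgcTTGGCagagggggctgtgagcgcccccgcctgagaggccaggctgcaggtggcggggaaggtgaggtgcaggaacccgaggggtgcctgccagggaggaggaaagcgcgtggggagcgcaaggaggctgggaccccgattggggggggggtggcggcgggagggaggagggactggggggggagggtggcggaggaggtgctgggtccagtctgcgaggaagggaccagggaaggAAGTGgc
Six3: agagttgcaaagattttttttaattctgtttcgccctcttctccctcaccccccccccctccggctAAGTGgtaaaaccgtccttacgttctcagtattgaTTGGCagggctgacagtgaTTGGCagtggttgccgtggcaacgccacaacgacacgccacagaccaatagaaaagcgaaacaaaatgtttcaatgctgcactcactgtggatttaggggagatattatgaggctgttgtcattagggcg
The windows held 1, 3, 1 and 2 NFI half-sites in this order, and 1 NKX core each in Dmrt3 and Six3. No marked motifs overlapped. An NFI half-site stood in 41.5% and an NKX core in 40.7% of 32851 annotated windows of this length, and in 44.4% and 37% of those of the tested genes. Among windows of DEGs the shares were 43.3% and 35.7% for genes higher in OB and 42.7% and 36.7% for genes higher in HC.

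Sp8, a zinc finger factor of OB interneurons and of the rostral forebrain, had values of 242, 278 and 271 in OB and 0, 0.913 and 0 in HC. HC held a single read in all. The ratio of mean values was 866, and that of reads pooled over the samples of each region, each pool divided by its depth, was 1450, with an exact 95% counting interval of 259 to 57100. Eomes, a T-box factor of OB projection neurons, had 16.3, 33.9 and 19.4 in OB and 0 in every HC sample, which is at least 42-fold higher in OB against a floor of 3 reads in HC, again in pooled reads as in every such bound. In both genes the regions were far apart, with HC at or next to 0. The Sp8 relative Sp9 and the interneuron factors Dlx1, Dlx2 and Dlx5 were higher in OB by 3.52 to 3.98 on the log2 scale, all from low values. Foxp2, a forkhead factor, was higher in OB by 3.41 ± 0.60.

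Factors at higher level in both regions also differed. Tshz2, a teashirt zinc finger factor, had 961, 1097 and 894 in OB and 227, 193 and 242 in HC and a log2 fold change of 2.15 ± 0.17 (limma, adjusted p = 1.128e-05). Meis2, a homeobox factor of the ventral forebrain, had 886, 808 and 790 in OB and 229, 260 and 300 in HC, a log2 fold change of 1.66 ± 0.17 (limma, adjusted p = 8.178e-05). In both genes every OB value was above every HC value, with replicates close together. Zic1, Etv1 and Sox8 were higher in OB by 1.44 ± 0.28, 1.17 ± 0.15 and 1.17 ± 0.21.

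Dmrt3, a doublesex-related factor of the medial pallium, had 0 in every OB sample and 65.6, 44.8 and 46.6 in HC. No OB sample held a read, so the level was at least 69.9-fold higher in HC. Six3, a homeobox factor of the rostral forebrain, had 0 in every OB sample and 56.2, 30.1 and 36.7 in HC, at least 55.4-fold higher in HC. Emx2, which is needed for the HC to form, had 41.3, 67.1 and 85.1 in OB and 443, 334 and 550 in HC and a log2 fold change of -2.79 ± 0.30 (limma, adjusted p = 0.0001314). Prox1, a factor of dentate granule cells, had 21.7, 7.89 and 30.2 in OB and 188, 204 and 141 in HC, a log2 fold change of -3.25 ± 0.47. The log2 fold changes of Nr2f1, a nuclear receptor of the caudal cortex, of the zinc finger gene Fezf2 and of Hopx, a marker of radial glia, were -2.60 ± 0.28, -2.05 ± 0.46 and -1.50 ± 0.23. All of these lay higher in HC in every sample. Otx2, a factor of the choroid plexus, was higher in HC with a log2 fold change of -3.95 ± 0.30. It is also a member of the choroid plexus list described further on, and the part of those cells in its value was not tested.

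The nuclear factor I genes, which drive astrocyte development, were not DEGs. Nfia had 3966, 4446 and 4921 in OB and 4461, 7319 and 6538 in HC. Nfib had 1764, 2004 and 2322 in OB and 2272, 2958 and 3023 in HC. Nfix had 1817, 1891 and 1938 in OB and 1958, 2296 and 1899.8 in HC. In each the regions overlapped. Without HC 1, Nfia was called higher in HC at -0.64. The forebrain factor Lhx2 had a log2 fold change of -0.29 ± 0.17 and was not called. Sox9, a glial factor, had -0.40 ± 0.23, and without HC 1 was called at -0.66. The progesterone receptor gene Pgr, with 10.9, 5.53 and 8.08 in OB and 35.6, 16.4 and 33 in HC, and the zinc finger gene Maz, at -0.35 ± 0.27, did not pass either. Every HC value of Pgr was above every OB value, and DESeq2 on reads called it at -1.83 (adjusted p = 0.07349). Nkx2-2, a homeobox factor of the oligodendrocyte lineage, had 40.2, 33.9 and 64.6 in OB and 16.9, 18.3 and 13.9 in HC and did not pass in limma, but did in edgeR and DESeq2 on reads, with log2 fold changes of 1.52 and 1.51 (DESeq2 adjusted p = 0.0428). Stat4 and Nkx6-1 did not reach the level needed for the test.

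**Figure D2:**
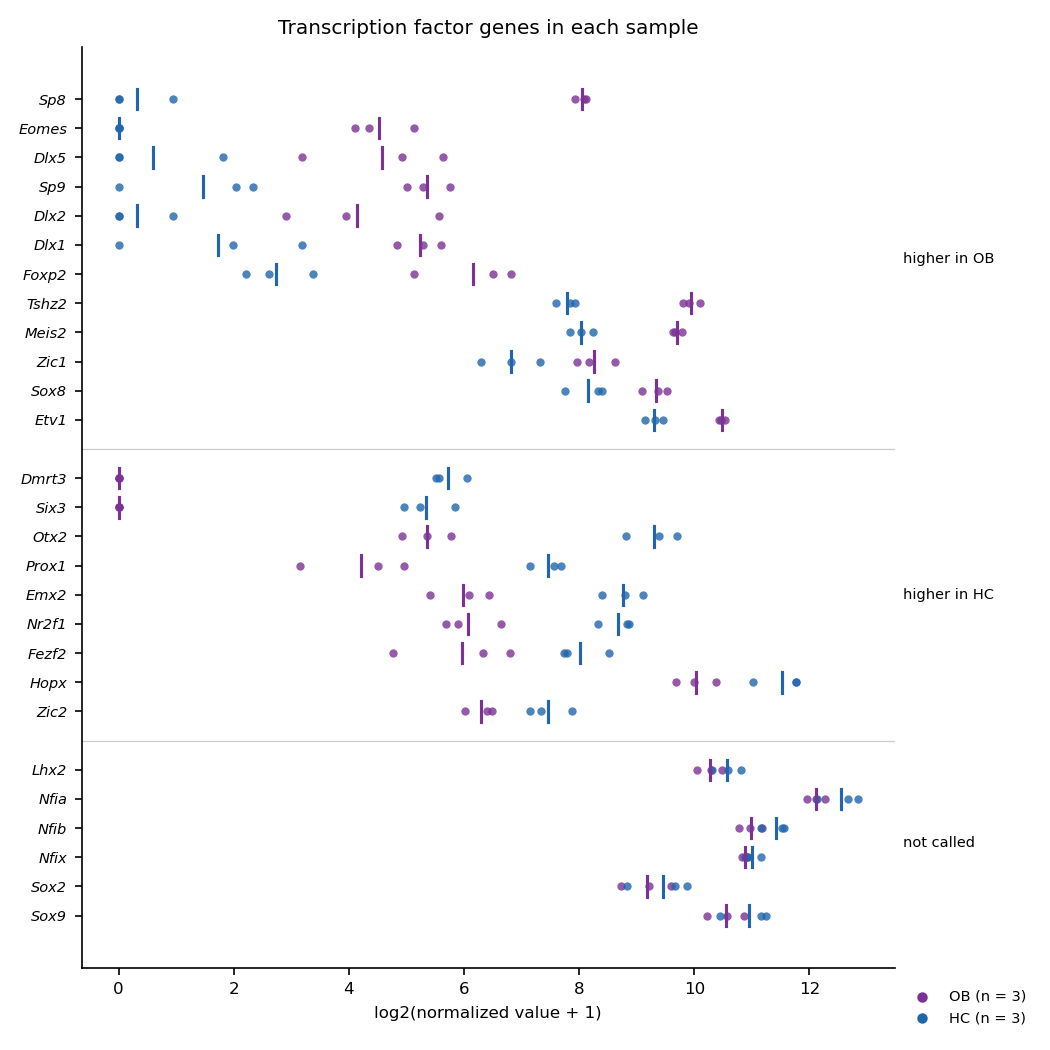
Log2(normalized value + 1) of transcription factor genes in each sample (horizontal axis), with purple points for the 3 OB samples, blue points for the 3 HC samples and vertical ticks for the means. In the upper block OB lies to the right, in the middle block HC lies to the right with Dmrt3 and Six3 at 0 in every OB sample, and in the lower block the regions lie close together.

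Several ionotropic glutamate receptor genes were higher in OB. Of 17 tested genes of ionotropic glutamate receptors, 7 were DEGs (41.2%, against 11.3% of all tested genes). All 7 were higher in OB, with a median of 0.94 over the list. The number was 6 or 7 when any sample was left out, and without OB 2 it was 7, of which 6 were higher in OB and 1 was higher in HC. Gria1 (chr11:57011387-57330244), an AMPA receptor subunit, had 4010.2, 3964 and 3943 in OB and 364, 438 and 314 in HC. Replicates differed little and OB was higher by 3.43 ± 0.16 on the log2 scale (limma, adjusted p = 2.46e-07). The other AMPA receptor subunits followed, Gria2 at 1.15 ± 0.17, Gria3 at 2.32 ± 0.34 and Gria4 at 2.76 ± 0.23. Grin3a, an NMDA receptor subunit, had 1674, 1799 and 1835 in OB and 279, 428 and 343 in HC, and Grik3, a kainate receptor subunit, had 522, 409 and 395 in OB and 26.2, 53 and 4.77 in HC. Shisa9, an auxiliary protein of AMPA receptors named here after its values were seen, had 4195, 4785 and 5452 in OB and 98.1, 123 and 161 in HC and a log2 fold change of 5.25 ± 0.19 (limma, adjusted p = 8.475e-08). Of 7 metabotropic receptor genes tested, Grm4 was higher in OB at 3.20 ± 0.74 and Grm3 was higher in HC at -0.78 ± 0.21. Grm3 was not called without OB 1, OB 2, HC 2 or HC 3, with values of -0.80 to -0.62. AMPA receptor genes are also used by neurons and oligodendrocyte precursors. Olfactory bulb neuron markers summed to 2033 to 3127 in OB and 507 to 746 in HC, and precursor markers to 2105 to 2436 in OB and 1275 to 1621 in HC. Pan-neuronal genes summed to 4962 to 6619 in OB and 4286 to 6046 in HC, and their part in the result was not tested.

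Transcripts of GABA transport, synthesis and receptor genes differed as well. Slc6a11, which encodes the astrocyte GABA transporter GAT-3, had 26319, 26056 and 32499 in OB and 3232, 4786 and 5561 in HC, a difference of 2.67 ± 0.23 (limma, adjusted p = 2.174e-05). The lowest OB sample was above the highest HC sample. Maob, the monoamine oxidase by which astrocytes make GABA from putrescine, went the other way with 357, 373 and 487 in OB and 976, 1132 and 1003 in HC, a log2 fold change of -1.36 ± 0.17. The GABA-B receptor gene Gabbr1 was also higher in HC, with 949, 1410.0 and 1488 in OB and 1951, 2807 and 3309 in HC, a log2 fold change of -1.06 ± 0.22. In all, 8 of 20 tested GABA genes were DEGs (40%), 4 in each direction, and 5 without OB 2. Without OB 2 or OB 3, 2 were higher in HC. Of 14 genes of glutamate uptake and the glutamine cycle, 2 were DEGs (14.3%, against 11.3% of all tested genes), with 1 without OB 3 and 5 without HC 1. Without HC 1, HC 2 or HC 3, 1 of the calls was higher in HC. Both calls with all samples were higher in OB, the glutamine exporter Slc38a3 with 2639, 2952 and 3578 in OB and 922, 1054 and 1303 in HC and the neutral amino acid carrier Slc1a4 at 0.68 ± 0.17. Slc1a4 was not called without OB 3, at 0.55, or without HC 2, at 0.64. Slc6a9, the glycine transporter GlyT1, had 1888, 1509 and 2002 in OB and 111, 163 and 172 in HC, a log2 fold change of 3.60 ± 0.20 (limma, adjusted p = 1.136e-06), and every OB value lay far above HC. Of 13 genes of glycine and serine metabolism 3 were DEGs (23.1%), all higher in OB, and only Slc6a9 was left without OB 3 or without HC 2.

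Potassium channel genes were called at 10 of 25 (40%, against 11.3% of all tested genes), with 8 higher in OB and 2 higher in HC. Without HC 1 there were 6, of which 4 were higher in OB. Without OB 2 or OB 3, 5 were higher in OB, and without OB 3 or HC 3, 4 were higher in HC. Kcnj10, the inward rectifier Kir4.1 that carries potassium into astrocytes, had 32855, 26678 and 34048 in OB and 7653, 11324 and 12008 in HC, a log2 fold change of 1.61 ± 0.23 (limma, adjusted p = 0.0009966). The OB level was above HC in every sample. Kcnd3, a voltage-gated channel, had 1016, 1006 and 1195 in OB and 250, 100 and 133 in HC, a log2 fold change of 2.83 ± 0.28, and Kcnc1 differed by 2.67 ± 0.42. Kcnh1 and Kcnq3 were higher in HC, with log2 fold changes of -3.46 ± 0.64 and -2.92 ± 0.54. Of 18 genes of gap junctions and endfeet, 6 were DEGs (33.3%), all higher in OB, and 3 without OB 1 or without HC 1. Sgcd, a dystrophin-complex sarcoglycan, had 204, 82.9 and 145 in OB and 3.75, 5.48 and 9.17 in HC, and Dmd, the dystrophin gene, differed by 0.69 ± 0.15. Gja1, the main astrocyte connexin, had 0.21 ± 0.21 and was not called. Receptors for monoamines, acetylcholine and purines were called at 9 of 22 (40.9%), with 7 higher in OB and 2 in HC. Without OB 2 there were 5, of which 3 were higher in OB. A single call in HC was left without OB 1, OB 3, HC 2 or HC 3. Adenosine receptor Adora1 had 885, 621 and 788 in OB and 342, 395 and 425 in HC, and the ATP receptor P2ry1 differed by 3.18 ± 0.73. Htr2c, the serotonin receptor that choroid plexus epithelium expresses, was higher in HC with 3.26, 13.4 and 3.23 in OB and 919, 363 and 824 in HC.

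Secreted and matrix proteins differed in both directions. Of 25 matrix genes tested, 12 were DEGs (48%, against 11.3% of all tested genes), 7 higher in OB and 5 higher in HC. Without OB 2 there were 8, with 4 in each direction. Chrdl1, a BMP antagonist that astrocytes secrete to mature synapses, had 2879, 2719 and 3111 in OB and 262, 406 and 346 in HC, a log2 fold change of 3.12 ± 0.18 (limma, adjusted p = 1.211e-06). Thrombospondins, which promote synapse formation, were split between the regions. Thbs2 had 372, 328 and 399 in OB and 30, 29.2 and 20.2 in HC, a log2 fold change of 3.76 ± 0.28 (limma, adjusted p = 7.401e-06). Thbs4 had 0, 2.37 and 1.08 in OB and 185, 300 and 127 in HC, a log2 fold change of -6.65 ± 0.62 (limma, adjusted p = 4.529e-05). Thbs2 was higher in every OB sample and Thbs4 in every HC sample. Neurocan, a proteoglycan of the perineuronal matrix encoded by Ncan, had 26588, 23091 and 28958 in OB and 5932, 13312 and 10837 in HC. The glypican gene Gpc4, whose product recruits AMPA receptors, was higher in HC with 103, 122 and 104 in OB and 221, 210 and 249 in HC, a log2 fold change of -1.04 ± 0.21.

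**Figure D3:**
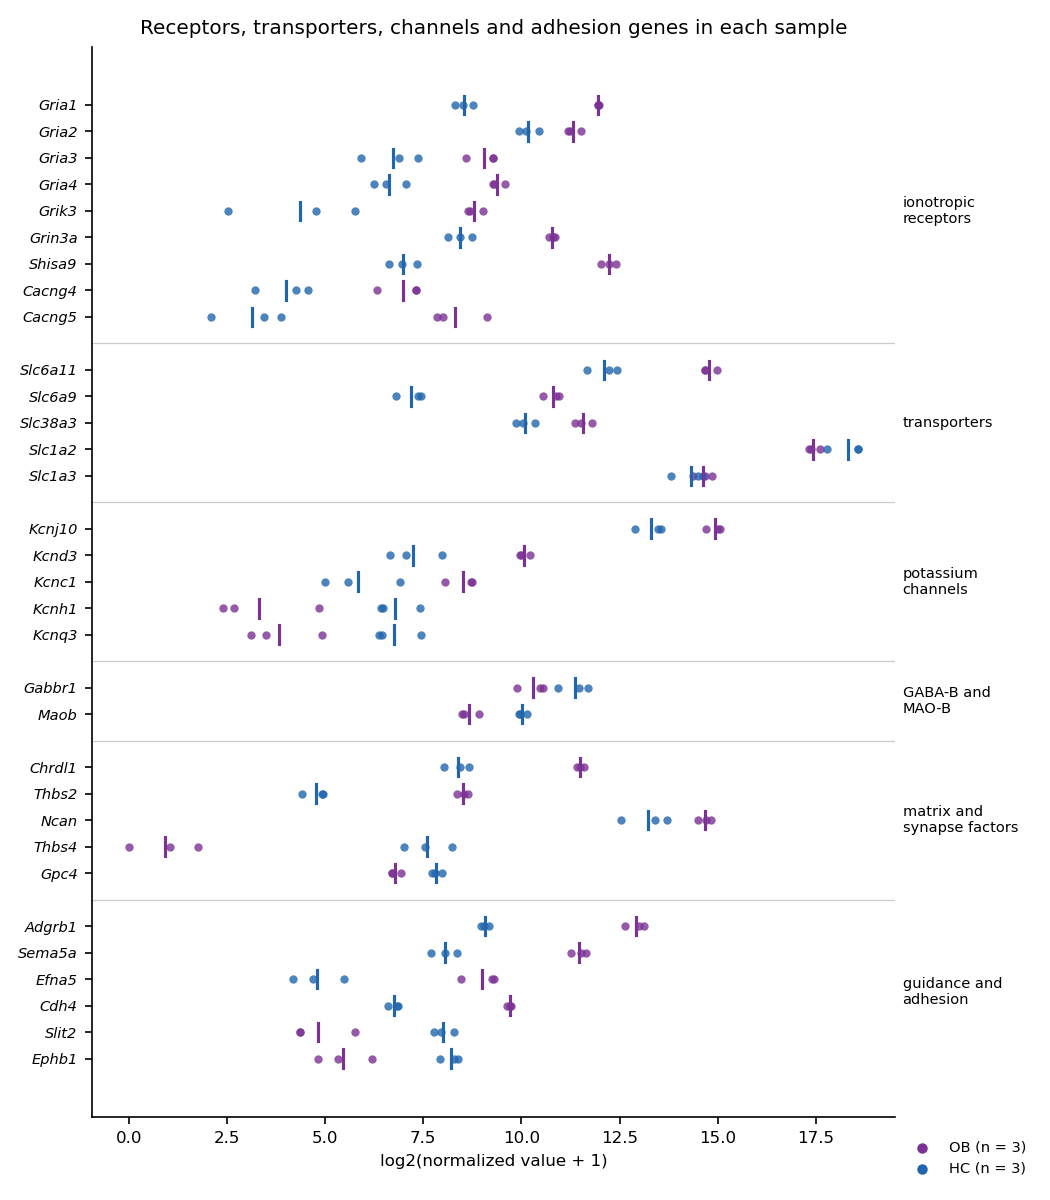
Log2(normalized value + 1) of receptor, transporter, channel, matrix and adhesion genes in each sample (horizontal axis), with purple points for OB (n = 3), blue points for HC (n = 3) and vertical ticks for the means. OB lies to the right for Gria1, Shisa9, Slc6a11, Kcnj10 and Chrdl1, HC lies to the right for Maob, Gpc4, Thbs4, Slit2 and Ephb1, and Slc1a3 overlaps.

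Axon guidance genes were called at 17 of 46 (37%, against 11.3% of all tested genes), with 10 higher in OB and 7 higher in HC. Without HC 2, 10 were higher in OB and 4 in HC. Sema5a, a transmembrane semaphorin, had 3213, 2908 and 2439.6 in OB and 329, 267 and 207 in HC, a log2 fold change of 3.43 ± 0.19 (limma, adjusted p = 1.136e-06). Efna5, an ephrin ligand, had 631, 349 and 605 in OB and 25, 43.8 and 17.2 in HC, a log2 fold change of 4.21 ± 0.36 (limma, adjusted p = 2.418e-05). Slit2, a repellent, had 19.5, 53.7 and 19.4 in OB and 247, 216 and 310 in HC, a log2 fold change of -3.17 ± 0.40, and was higher in HC. Robo2, the Slit receptor, had 1392, 1663 and 1560.0 in OB and 272, 356 and 421 in HC and was higher in OB by 2.15 ± 0.18. The Eph receptor genes Epha5 and Ephb1 were on opposite sides, at 1.58 ± 0.21 and -2.74 ± 0.35. Of 26 cadherin genes, 8 were DEGs (30.8%), 7 higher in OB and 1 in HC, with none in HC without HC 2 and 2 without HC 3. Cdh4, which encodes R-cadherin, had 798, 837 and 858 in OB and 112, 114 and 95.8 in HC, a log2 fold change of 2.94 ± 0.17, and Cdh2, which encodes N-cadherin, had 1.07 ± 0.18. Adgrb1, an adhesion receptor that engulfs cell debris, was named after its values were seen. It had 8091, 6387 and 8838 in OB and 532, 497 and 573 in HC, with a log2 fold change of 3.85 ± 0.16 (limma, adjusted p = 1.763e-07), and OB lay above HC in every sample.

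Among developmental pathways, Wnt genes were called at 10 of 39 (25.6%, against 11.3% of all tested genes), with 5 in each direction. Without OB 2 there were 15, 8 higher in OB and 7 in HC. Lgr5, a receptor for R-spondins and marker of stem cells, had 103, 158 and 86.7 in OB and 0, 0 and 0.367 in HC. Its ratio of mean values was 948, and that of pooled reads, as for Sp8, was 611, with an exact 95% counting interval of 109 to 24200. Its relative Lgr4 was higher in HC at -1.28 ± 0.23, as was the inhibitor Dkk3 at -1.09 ± 0.19. The ligand Wnt7a had 392, 469 and 484 in OB and 78.7, 90.4 and 135 in HC, and its level was higher in OB by 2.17 ± 0.24. Notch genes were called at 5 of 19 (26.3%), all higher in OB (4 of the 5 without HC 3). Among them were the target Hey2 at 2.38 ± 0.23, the target Heyl at 2.82 ± 0.32 and the ligand Dner at 1.95 ± 0.17. FGF genes were called at 4 of 21 (19%), all higher in OB (4 of 5 without HC 1). Fgf1 was at 0.94 ± 0.16 and the receptor Fgfr1 at 0.99 ± 0.17. BMP and TGF-beta genes were called at 6 of 31 (19.4%), 5 higher in OB and 1 in HC, with 3 without OB 3 and 10 without HC 1. Those higher in OB numbered 3 without OB 1, OB 2 or HC 3 and 2 without OB 3, and those higher in HC numbered 3 without HC 1 or HC 3 and 2 without OB 2. Hedgehog genes were called at 2 of 12 (16.7%, near the share of all tested genes), 1 in each direction. None was called without HC 2 and 1 without OB 1, OB 2 or HC 3.

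Among hormone and metabolic genes, thyroid hormone and retinoic acid genes were called at 7 of 21 (33.3%, against 11.3% of all tested genes). Of these, 6 were higher in HC. Without OB 2, OB 3, HC 2 or HC 3 there were 4, all higher in HC. Slco1c1, a carrier of thyroid hormone, had 334, 400 and 163 in OB and 1393, 1004 and 1384 in HC, a log2 fold change of -2.15 ± 0.29. Every HC value was above every OB value. Cholesterol and lipid genes were called at 6 of 30 (20%), 2 higher in OB and 4 in HC. There were 2 without OB 2, 1 without OB 3 and 3 without HC 2. The split moved to 2 and 2 without OB 1, to 0 and 6 without HC 1, and to 5 and 1 without HC 3. Clu, the lipid carrier clusterin, had 7484, 10870 and 11075 in OB and 16377, 23417 and 24197 in HC, a log2 fold change of -1.12 ± 0.23. Glycolysis genes were called at 4 of 26 (15.4%, near the share of all tested genes), with 2 in each direction, and at 2 without OB 1 or HC 3. Without OB 2, 3 were higher in OB and 1 in HC. Neuropeptide genes were called at 6 of 18 (33.3%), of which 5 were higher in OB and 1 in HC. Those higher in OB numbered 3 without OB 2 or OB 3, and those higher in HC numbered 2 without OB 1, OB 2, HC 1 or HC 3.

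Of 29 reactive astrocyte genes, 3 were DEGs (10.3%, against 11.3% of all tested genes), all higher in OB, and there were 5 without HC 1, all higher in OB, and 5 without HC 2, 4 of them higher in OB. They were Vim at 1.32 ± 0.22, Serpina3n with 371, 559 and 336 in OB and 131, 74 and 35.6 in HC and Sphk1, a sphingosine kinase, with 122, 231 and 145 in OB and 6.25, 0 and 0 in HC. Metallothionein and glutathione genes were called at 1 of 22 (4.55%), the gene Hmox1, and at none without OB 1 or OB 3 and 2 without HC 1. Without HC 2 the only call was higher in HC. Of 27 immediate early genes, which dissociation can induce, limma called 0, with 1 at an unadjusted p under 0.05, and edgeR and DESeq2 also called 0. Without HC 1, 10 were called, all higher in OB.

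**Figure D4:**
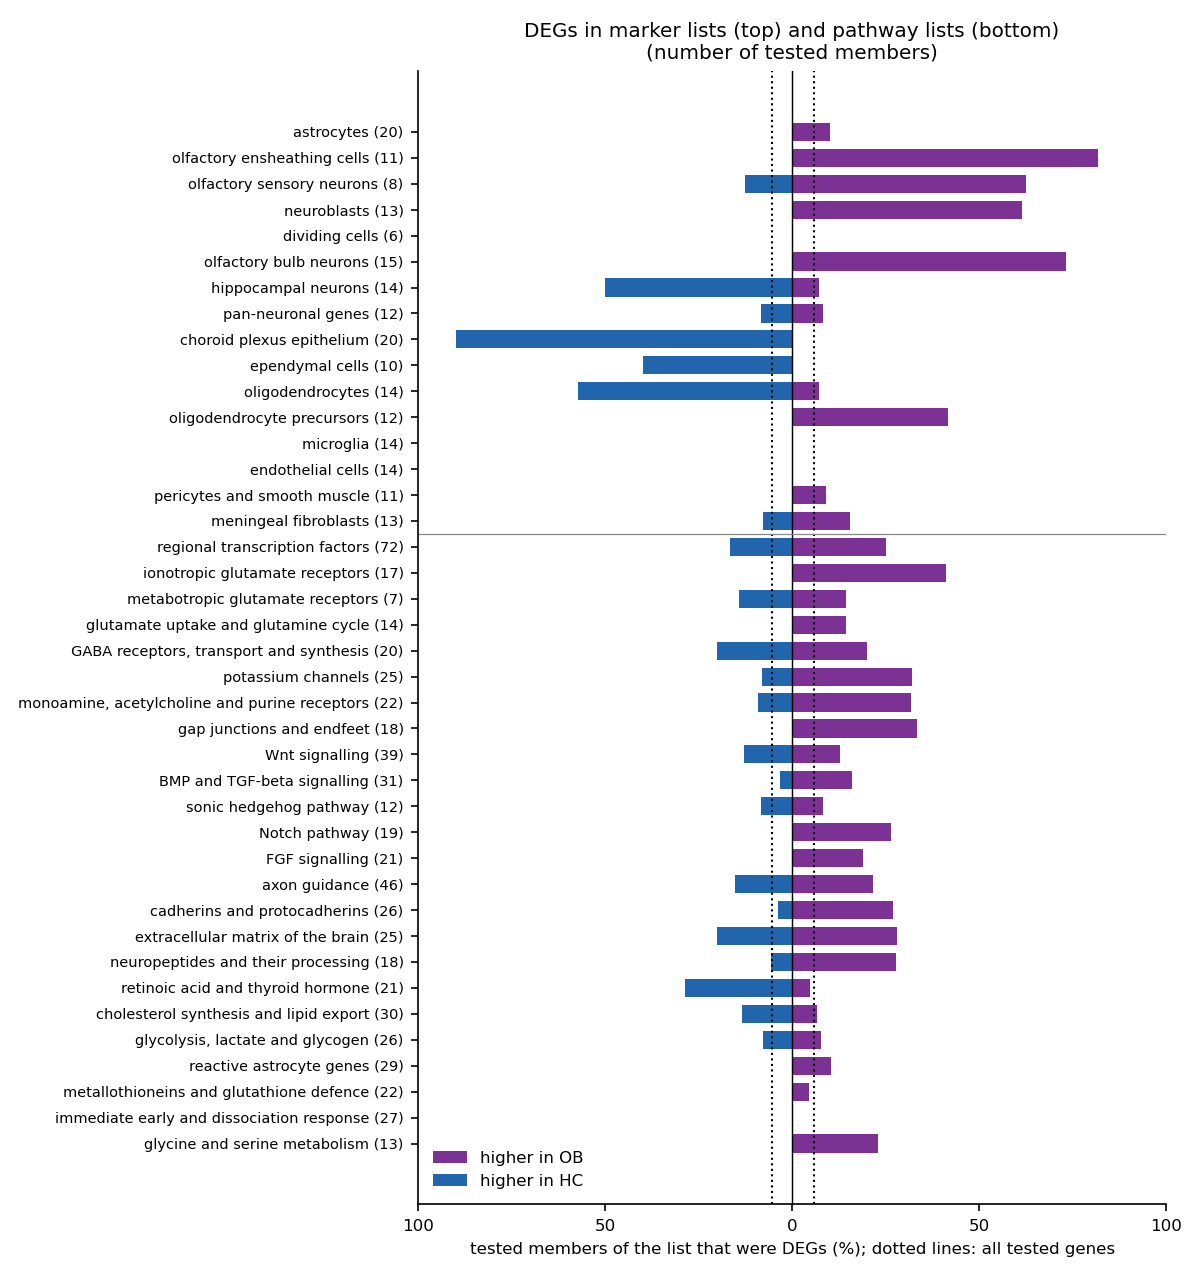
Percent of the tested members of each list that were DEGs, to the right when higher in OB (purple) and to the left when higher in HC (blue), with the number tested in brackets. Dotted lines mark the 5.87% and 5.45% of all tested genes, and the longest bars are choroid plexus epithelium on the HC side and olfactory ensheathing cells on the OB side.

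Genes of other cell types made up some of the largest differences. In bulk samples fewer cells of a type and less RNA per cell cannot be told apart. Of all lists, choroid plexus genes had the median farthest towards HC. Of 20 tested, 18 were DEGs (90%, against 11.3% of all tested genes), all higher in HC, with a median log2 fold change of -6.13. Ttr, the thyroxine carrier of cerebrospinal fluid, had 6.52, 16.6 and 5.39 in OB and 132046, 65549 and 124536 in HC, and Kl, the gene of klotho, had 4.34, 1.58 and 11.9 in OB and 5233, 2164 and 4723 in HC. Folr1, Slc4a5 and Tmem72, a folate receptor, a bicarbonate transporter and a membrane protein, had no read in any OB sample, and were at least 369-, 981- and 373-fold higher in HC. The summed level of the list was 437 to 490 in OB, and 154972, 76006 and 144496 in HC 1, HC 2 and HC 3. Ependymal genes summed to 116 to 176 in OB and 361 to 520 in HC. Of 10 tested, 4 were DEGs (40%), all higher in HC, with 2 without HC 1 or HC 2.

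The genes that led the HC side are set beside these marker values. Outside the marker lists, the 12 largest differences towards HC were Prr32, Epn3, Drc7, Htr2c, Thbs4, Wdr72, Krt18, Dnah6, 1500015O10Rik, Wdr86, Wdr63 and Baiap2l1. Drc7, Dnah6 and Wdr63 encode parts of motile cilia and Krt18 a keratin of epithelia. Prr32 had 0 in every OB sample and 346, 181 and 376 in HC, at least 442-fold higher in HC. Its lowest HC value was in HC 2, which had the lowest choroid plexus sum. The same sample was lowest at 43.4% of the 751 DEGs higher in HC and at 31.7% of all tested genes. It was also lowest at 77 of the 100 DEGs with the largest folds towards HC, among those with an adjusted p under 0.05 and no overlap. Marker genes were not left out of the 751 or the 100. Choroid plexus genes, by whose sum HC 2 was singled out, are among both, so these counts are not independent of that sum. Thbs4, Dnah6 and Wdr86 were not lowest in HC 2, with HC values of 127 to 300, 57.5 to 102 and 58.7 to 73.7, and Wdr63 was lowest there by little, with 55.7 in HC 2 and 56.1 in HC 3. Enpp2, the autotaxin gene, which was named after its values were seen and which choroid plexus expresses, had 2744, 2298 and 2549 in OB and 73682, 33929 and 64728 in HC. The part of choroid plexus and ependymal cells in these results was not tested.

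Olfactory ensheathing cell genes had the median farthest towards OB. Of 11 tested, 9 were DEGs (81.8%, against 11.3% of all tested genes), all higher in OB, with a median log2 fold change of 4.78. Npy, a neuropeptide of these cells, had 936, 607 and 720 in OB and 1.87, 11 and 2.57 in HC, and Frzb, a Wnt inhibitor, had 767, 642 and 712 in OB and 8.75, 27.4 and 7.7 in HC. Fabp7, a fatty acid carrier of ensheathing cells and of immature astrocytes, had 16510.1, 12292 and 14279 in OB and 888, 1039 and 1077 in HC, a log2 fold change of 3.84 ± 0.17 (limma, adjusted p = 1.763e-07). Mybpc1, a myosin-binding protein, had 306, 234 and 197 in OB and 0 in every HC sample, at least 421-fold higher in OB. The list summed to 20110.5 to 26515 in OB and 4246 to 10167 in HC. Sox10, a factor shared with the oligodendrocyte lineage, was higher in OB at 2.30 ± 0.43.

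Genes of neurons that lie in a region or send axons to it were mostly higher in that region, as were neuroblast genes in OB. Olfactory sensory neuron genes were called at 6 of 8 (75%, against 11.3% of all tested genes), of which 5 were higher in OB and 1 in HC. The call in HC was lost without OB 2, OB 3, HC 1, HC 2 or HC 3. The list summed to 359 to 698 in OB and 100 to 137 in HC. Omp, the olfactory marker protein, had 239, 133 and 98.6 in OB and 0 in every HC sample, at least 255-fold higher. Neuroblast genes were called at 8 of 13 (61.5%), all higher in OB, with a sum of 2506 to 3186 against 754 to 824 in HC. The largest part of the sum was Robo2, given above with the axon guidance genes, at 1392, 1663 and 1560 in OB and 272, 356 and 421 in HC. Dlx1, Dlx2 and Dlx5, given above as regional factors, are on the list too. Dcx, the doublecortin of migrating neuroblasts, had 415, 363 and 268 in OB and 18.7, 15.5 and 12.1 in HC. Olfactory bulb neuron genes were called at 11 of 15 (73.3%), all higher in OB. Gad1, the enzyme that makes GABA, was at 3.87 ± 0.36. Th, the enzyme of dopamine synthesis, had 26.1, 66.3 and 13.5 in OB and 0, 0 and 0.367 in HC. Hippocampal neuron genes were called at 8 of 14 (57.1%), of which 7 were higher in HC. They summed to 1357 to 1960 in OB and 3516 to 6854 in HC, and the largest part of the sum was Camk2a. Wfs1 and Slc17a7, also among the members at highest level, overlapped and were not called, at 0.31 ± 0.20 and -0.82 ± 0.41. Over the 14 genes, 11 log2 fold changes were negative and 3 were positive. Camk2a, a kinase of excitatory neurons, had 991, 1348 and 912 in OB and 5656, 5192 and 2834 in HC, and Neurod6, a factor of pyramidal cells, had 0, 0 and 0.539 in OB and 63.1, 75.8 and 29.7 in HC. Pan-neuronal genes were called at 2 of 12 (16.7%, near the share of all tested genes), 1 in each direction, and at 1 without HC 1 or HC 2. The part of these cells in the values of the genes described above was not tested. Some of those genes are members of these lists, Meis2 and Eomes of bulb neurons and Prox1 of hippocampal neurons.

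Oligodendrocyte genes were called at 9 of 14 (64.3%, against 11.3% of all tested genes), of which 8 were higher in HC. There were 5 without OB 2 or OB 3 and 4 without HC 2. Those higher in HC numbered 5 without OB 2, OB 3 or HC 1 and 3 without HC 2, and none was higher in OB without OB 1, OB 2 or OB 3. Mbp, the myelin basic protein, had 8301, 6602 and 3846 in OB and 29074, 25321 and 13413 in HC. Precursor genes were called at 5 of 12 (41.7%), all higher in OB, and at 3 without OB 3, HC 1 or HC 3. Microglial genes were called at 0 of 14 by limma, with 0 at an unadjusted p under 0.05 and 0 by edgeR or DESeq2, and endothelial genes at 0 of 14, with 2 at an unadjusted p under 0.05, 0 by edgeR and 1 by DESeq2. Without HC 3, each of these lists had 2 DEGs, all higher in HC. Dividing-cell genes were called at 0 of 6 by limma, with 1 at an unadjusted p under 0.05 and 0 by edgeR and DESeq2. Meningeal genes were called at 3 of 13, 2 higher in OB and 1 in HC, and at 5 without HC 1, 4 higher in OB. The call in HC was Igf2, with 229, 251 and 200 in OB and 3427, 1728 and 2261 in HC. The calls in OB were Islr and Bgn. Islr, also on the ensheathing cell list, had 1563, 1517 and 1679 in OB and 46.8, 52.1 and 74.1 in HC. Bgn had 1069, 581 and 744 in OB and 402, 251 and 409 in HC. Pericyte genes were called at 1 of 11 (9.09%, near the share of all tested genes), with 2 without HC 1 and 0 without any other sample.

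**Figure D5:**
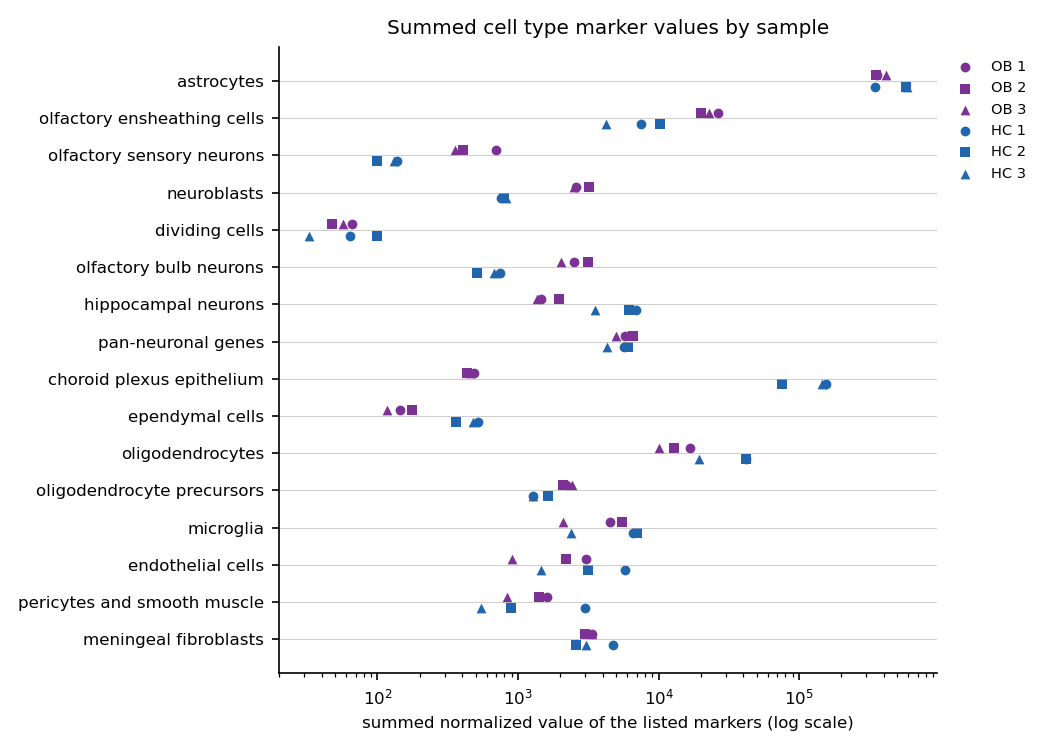
Summed normalized value of the listed markers of each cell type (log axis) in the 3 OB (purple) and 3 HC (blue) samples. The choroid plexus sums are 437 to 490 in OB and at least 76006 in HC, the sums of olfactory ensheathing cells, sensory neurons, neuroblasts and bulb neurons lie higher in OB, and the astrocyte sums overlap.

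Outside the marker lists, the 12 largest differences towards OB were Tex15, Clca3a1, Sp8, 1110015O18Rik, Lgr5, Sphk1, Gpr50, Ltbp2, Gdpd4, Foxd3, Aim1 and Cldn19. Tex15, a gene known from meiosis, had 208, 232 and 252 in OB and 0 in every HC sample, at least 426-fold higher in OB. Foxd3, a forkhead factor of neural crest cells, had 40.2, 40.3 and 63.6 in OB and 0 in every HC sample, at least 92.1-fold higher. Clca3a1, a regulator of chloride channels, had 619, 385 and 357 in OB and 6.25, 0 and 0 in HC, and Cldn19, a claudin of Schwann cells, had 216, 134 and 187 in OB and 0.625, 6.39 and 6.24 in HC. In each, the lowest OB value was several times the highest HC value. Olfactory ensheathing cell genes were high in the same samples, with the sums given above, and their part in these values was not tested.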

How the data were processed

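RNA from sorted cells was sequenced in paired ends after rRNA depletion. Per the study's methods and the submitters' notes, the authors mapped reads to mm10 with STAR 2.5.0a, counted them on UCSC transcripts and normalized with DESeq2 1.20.0. The deposited values are a normalized signal, each gene's reads divided by a size factor of the sample. Divided by the value of a single read, 100% of the values above 0 came out whole (tolerance 0.01), so reads were recovered. Each sample lists 24421 entries, 27 under names damaged into dates, which were not matched to lists.

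Genes that exceeded 5 in 2 or more replicates of either region were tested with limma 3.58.1 (R 4.3.3), with a mean-variance trend and a pseudocount of 1. edgeR 4.0.16 and DESeq2 1.42.0 on recovered reads, other scalings, pseudocounts, filters and thresholds, and each sample left out, were the alternatives. On data simulated from these 6 samples, the limma step was tested before use. Python 3.11.15 (pandas 2.3.3, numpy 2.4.6, scipy 1.17.1, matplotlib 3.10.9) did the rest. Genes were named as the 12 largest DEGs in each direction outside marker lists, up to 4 DEGs of each list, identity genes and factors the study discussed. Other members of the lists, and genes of no list, were named after their values were seen. Some genes are not reported here. A floor is 3 reads over a group (0.742 in OB, 0.553 in HC), and intervals cover counting error only at 95%. Coordinates are GENCODE on GRCm38. The comparison and the lists were chosen with earlier results of these data known.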

Additional observations from a re-analysis of the deposited data

How the results depend on the processing

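The 1561 DEGs numbered between 1218 and 1485 when a sample was left out, with 610 to 808 higher in OB and 588 to 715 higher in HC. The share higher in OB ranged from 48% to 57.8%, and was below an even split without OB 1, at 48%, and without OB 2, at 49.3%. A mean for each of 4 regions with an adjusted p under 0.05, added after the data were seen, gave 1015 DEGs, 520 higher in OB and 495 higher in HC. Every other scaling, pseudocount, filter, tool and threshold gave counts within 1.5 times the values reported. No gene for which the alternatives were computed, which were those named with a fold change or with each sample's value, changed direction. Over the alternatives other than a left-out sample, calls of these genes were lost 31 times. Among the losses, Gabbr1 and Fgf1 were not called with 4 region means, and Aqp4 and Acsbg1 not at an adjusted p under 0.05. A fold over 2 dropped DEGs of smaller folds, such as Adora1 at 0.97, Fgfr1 at 0.99, Dmd at 0.69, Slc1a4 at 0.68 and Grm3 at -0.78. The causes were not tested.

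The replicate numbers are shared by OB and HC, but nothing says that they pair samples. Deviations of same-numbered samples correlated at 0.169, 0.0615 and 0.25, and each sample correlated best with its own number, a hint from the data and not the design. With a replicate block, 1887 genes were DEGs, 977 higher in OB and 910 higher in HC.

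With 3 samples a region, and at the depth of OB 1, low genes rest on few reads, since a value of 5 there is under 5 reads. The median standard error was 0.35 on the log2 scale. The sorted populations held RNA of other cell types, which these values cannot separate from astrocytes.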

Other observations

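Strong differences also appeared in genes that belonged to no list and were named after their values were seen. Towards OB, Lyn, a kinase of the Src family, had 1683, 2033 and 1971 in OB and 261, 267 and 233 in HC and a log2 fold change of 2.90 ± 0.15 (limma, adjusted p = 1.063e-06). The heparan sulfate sulfotransferase genes Hs3st3b1 and Hs3st3a1 had 511, 519 and 548 in OB and 28.1, 21 and 29.4 in HC and 518, 465 and 613 in OB and 16.9, 28.3 and 11 in HC. In both the OB values were many times the HC values, with log2 fold changes of 4.29 ± 0.25 and 4.84 ± 0.34. Kctd12, an auxiliary subunit of GABA-B receptors, had 14067, 9004 and 10204 in OB and 1139, 1281 and 626 in HC, and was higher in OB although the receptor gene Gabbr1 was higher in HC. Etnppl, an enzyme of phospholipid breakdown found in astrocytes, had 2287, 1775 and 2325 in OB and 265, 251 and 391 in HC, and Igf1, a growth factor, had 385, 532 and 457 in OB and 59.3, 70.3 and 37.1 in HC. Apod, a lipid carrier, differed by 3.14 ± 0.39 and Ptn, the growth factor pleiotrophin, by 1.28 ± 0.21. Olfactory ensheathing cell and bulb neuron markers moved in the same direction with the sums given above, and their part was not tested.

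Towards HC, Prelp, a matrix protein with leucine-rich repeats, had 236, 311 and 291 in OB and 1899.5, 2009 and 2028 in HC and a log2 fold change of -2.83 ± 0.16 (limma, adjusted p = 1.136e-06). Strip2, a protein of the striatin complex, had 81.4, 71.1 and 63.6 in OB and 978, 775 and 1009 in HC and -3.66 ± 0.20 (limma, adjusted p = 1.128e-06). Gas6, a ligand of receptors that clear dying cells, had 286, 266 and 222 in OB and 1004, 792 and 1076 in HC, and Deptor, an inhibitor of mTOR, had 57.6, 41.1 and 57.1 in OB and 287, 290 and 288 in HC. In these 4 genes every HC value was above every OB value. HC 2, the HC sample with the lowest choroid plexus sum, had the lowest HC value of Strip2 and Gas6 and not of Prelp or Deptor. Choroid plexus and ependymal markers moved in the same direction with the sums given above, and their part was not tested.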
